A study of Mus musculus with 11 samples.

Results

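The genes described here encode the core of cytokine signalling in regulatory T cells (Tregs): the kinases Jak1 and Jak3, the transcription factors Stat3, Stat4, Stat5a and Stat5b, and the feedback inhibitors Socs1, Socs2, Socs3 and Cish. They were chosen by name, and all 10 were found among the 10992 genes of the deposited table. Their RNA was measured by bulk sequencing in Tregs sorted out of 2 tissues, spleen and visceral adipose tissue (VAT), of male mice at 25 weeks of age. All mice carried Foxp3-YFPcre, a Cre recombinase and fluorescent protein driven by Foxp3, the transcription factor that defines Tregs. KO mice carried Srebf2-flox/flox, in which both copies of Srebf2 can be deleted wherever this Cre is active, and WT mice carried Srebf2-WT/WT. The product of Srebf2, SREBP2, switches on the genes of cholesterol synthesis and uptake. The groups were VAT KO (3 libraries), VAT WT (3), spleen KO (2, replicates 2 and 3) and spleen WT (2, replicates 2 and 3). Spleen KO replicate 1 was not analysed here, nor was 1 column named as spleen WT replicate 1, which matches no label.

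Cytokines bind paired receptor chains that hold JAK kinases, and the kinases phosphorylate the receptor and the STAT proteins, which then enter the nucleus and switch on genes. SOCS proteins and Cish are among those genes and act back on the receptors or kinases, so that their RNA is widely read together with recent cytokine signalling. In Tregs, interleukin 2 acts through Jak1, Jak3 and STAT5 and is needed for Foxp3 expression and survival.

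Values are RPKM, which corrects read numbers for transcript length and for the size of the library, so levels can be set side by side between genes. Changes between groups are differences of log2(RPKM + 1), a scale that shrinks the changes of genes with low values, and are given ± SE from limma with an adjusted p over the 10429 genes tested, called under 0.05. All 10 genes were tested. Read depth was unknown. Libraries summed to between 185319 and 210778 RPKM. The correlation across genes was 0.932 between the 2 spleen WT libraries, against 0.969 to 0.974 in VAT KO, 0.968 to 0.973 in VAT WT and 0.971 in spleen KO, the lowest of the 4 groups. Srebf2 stood at 0.263 to 1.23 RPKM across the libraries of VAT KO, against 15.6 to 30.5 in VAT WT, and at 1.59 to 2.59 in spleen KO against 10.5 to 23.2 in spleen WT. All 7 Treg markers looked up were in the table, among them Foxp3 at 13.3 to 16.4 RPKM in VAT KO, 14.6 to 15.6 in VAT WT, 7.82 to 8.87 in spleen KO and 6.97 to 8.69 in spleen WT. The 5 adipose Treg markers, Pparg, Il1rl1, Klrg1, Gata3 and Ccr2, summed to 951 to 1126 RPKM in the VAT KO libraries and 1366 to 1475 in VAT WT, against 67.5 to 90.5 in spleen KO and 76.3 to 85.9 in spleen WT. The labels do not state whether each library is a mouse of its own, and the p-values rest on the spread among these libraries alone, which may be technical. In bulk samples, fewer cells with a transcript and less transcript per cell cannot be told apart.

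All of these genes were abundant in Tregs, and they differed in how far their levels ranged between groups. Jak1 had the highest mean of the 4 groups, 129.9 RPKM, above 98.2% of tested genes, and Stat5a the lowest, 13.2 RPKM, above 66.7%. Between these lay Socs3 at 59.0, Stat5b at 56.9, Jak3 at 50.1, Cish at 48.9, Stat4 at 40.1, Stat3 at 33.1, Socs1 at 32.1 and Socs2 at 26.4 RPKM. The range between the highest and the lowest group mean was narrow, on the log2 scale, for Stat4 (0.24), Jak3 (0.30), Stat3 (0.37), Jak1 (0.39) and Socs1 (0.46). It was wide for Socs2 (1.86), Cish (1.59), Socs3 (1.36) and Stat5a (1.08), which exceeded 83.7% to 94.7% of tested genes. The order of the genes depended on the group: in VAT WT, Cish was the second most abundant of the 10, and in both spleen groups Socs3 held that place.

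**Figure D1:**
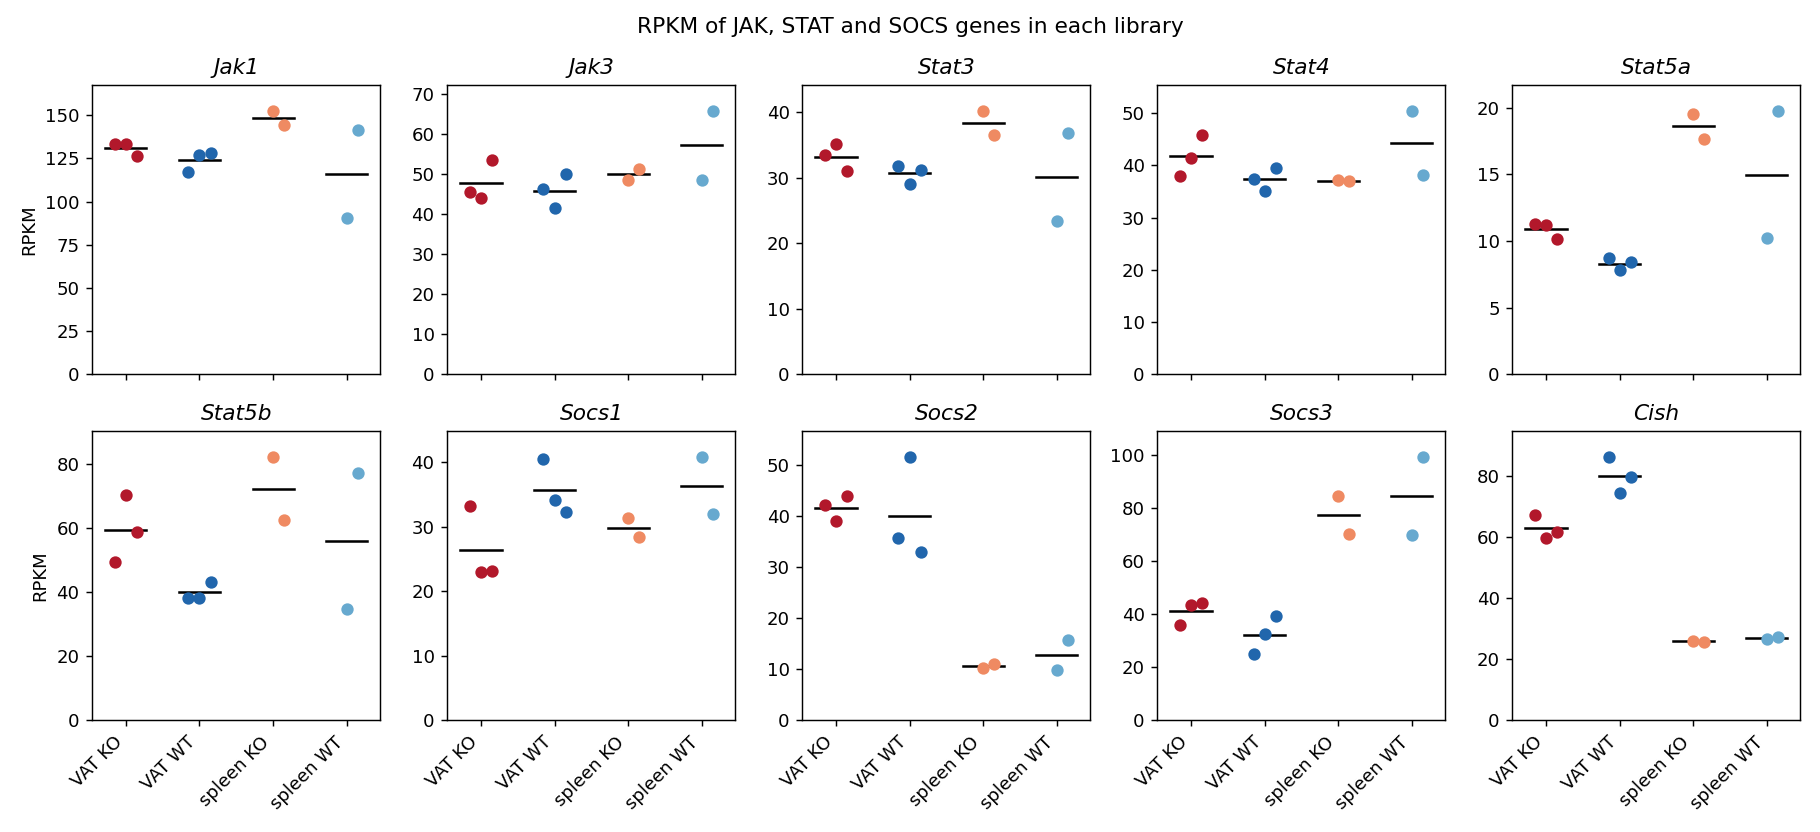
RPKM of each gene (vertical axes, from 0) in every library of VAT KO, VAT WT, spleen KO and spleen WT, 1 panel per gene; points are libraries and bars are group means. Cish and Socs2 stood higher in all 6 VAT libraries than in the 4 spleen libraries and Socs3 lower, while the 2 spleen WT libraries differed widely in Jak1, Stat3, Stat5a and Stat5b.

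Between fat and spleen Tregs, calls in both genotypes were made for feedback inhibitors and for none of the kinases or STATs. Cish and Socs2 were higher and Socs3 lower in VAT in both genotypes, while Jak1, Jak3, Stat3, Stat4, Stat5b and Socs1 did not pass the test in either. In KO Tregs 3 of the 10 genes were called, where 14.6% of all tested genes were, with 2 higher (7.65% of all tested genes) and 1 lower (6.94%). In WT Tregs 4 of the 10 were called, where 26.1% of all tested genes were, with 2 higher (10.7%) and 2 lower (15.4%). At an unadjusted p under 0.05 there were 4 of the 10 in KO, against 28.2% of all tested genes, and 4 in WT, against 39.5%. The tissues did not overlap for 7 of the 10 in KO, against 50.4% of all tested genes, with 3 higher (20.0%) and 4 lower (30.4%). In WT they did not overlap for 4 of the 10, against 49.1%, with 2 higher (18.1%) and 2 lower (31.0%). The median log2 change of the 10 genes was -0.18 in KO and -0.13 in WT, beside -0.09 and -0.12 over all tested genes.

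Cish, an SH2 protein induced by STAT5 that restrains cytokine and T cell receptor signalling, lies on chromosome 9 (chr9:107296659-107302784, GRCm38.p6) and was higher in VAT. It had 67.1, 59.7 and 61.7 RPKM across the libraries of VAT KO, against 26.0 and 25.8 in spleen KO. It had 85.9, 74.3 and 79.5 RPKM across the libraries of VAT WT, against 26.5 and 27.2 in spleen WT. Every VAT library was above every spleen library, and the lowest VAT value was in KO. The log2 change was 1.25 ± 0.13 in KO (2.37-fold, adjusted p = 3.9e-05) and 1.54 ± 0.13 in WT (2.90-fold, adjusted p = 3.5e-06). With any library left out, it lay between 1.20 and 1.28 in KO and between 1.48 and 1.59 in WT.

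Socs2, best known as the brake on growth hormone signalling through STAT5, lies on chromosome 10 (chr10:95383903-95417321) and was also higher in VAT. It had 42.1, 39.1 and 44.0 RPKM across the libraries of VAT KO, against 10.3 and 11.1 in spleen KO. It had 35.7, 51.5 and 33.1 RPKM across the libraries of VAT WT, against 9.83 and 15.9 in spleen WT. The tissues did not overlap in either genotype, and the WT libraries were more scattered than the KO libraries in both tissues. The log2 change was 1.86 ± 0.22 in KO (3.64-fold, adjusted p = 8.7e-05) and 1.58 ± 0.22 in WT (2.99-fold, adjusted p = 0.00022). Of the 50-base stretches of its longest coding transcript, 18.4% also occur in transcripts of Gm8000 or Gm9847. Reads there may be split between these genes, and how far that alters the level of Socs2 is not known.

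Socs3, which binds the shared receptor chain gp130 (Il6st) and ends interleukin 6 signalling through STAT3, moved the other way. It had 36.0, 43.6 and 44.5 RPKM across the libraries of VAT KO, against 84.7 and 70.4 in spleen KO. It had 24.9, 32.8 and 39.5 RPKM across the libraries of VAT WT, against 70.1 and 99.2 in spleen WT. No VAT library reached the lowest spleen library. The log2 change was -0.89 ± 0.21 in KO (adjusted p = 0.0118) and -1.36 ± 0.21 in WT (adjusted p = 0.00047). The KO call was lost when VAT KO replicate 1 was left out (-0.80, adjusted p = 0.0535) and also when spleen KO replicate 2 was, with 1 library of that group remaining (-0.76, adjusted p = 0.13).

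Sequences before the RefSeq start sites (GRCm38.p6, the same assembly as mm10) were searched for TTCNNNGAA, the palindromic core bound by STAT dimers, which reads the same on both strands. Of the 10 genes 9 matched an entry, with 12 windows of 250 bases in all. The motif was found in 1 of them, before Socs3, and in 7.01% of 32817 such windows over all genes. The Cish window lay wholly inside annotated exons of Cish, all 250 bases of it. Windows of Jak1, Jak3, Stat5a, Stat5b and Socs3 lay in part inside exons. Sequence outside these windows was not searched, so a gene without the motif here may hold it elsewhere. Socs3 and Socs1 are printed because these are the inducible inhibitors whose windows reach outside annotated exons, the first lower in VAT and the second not called between tissues. For Socs3 (minus strand, chr11:117969452-117969616) the longest stretch outside GENCODE exons, 165 bases, is given, with the motif in capitals. The first base of the motif is 154 bases before the start site used, and the printed stretch begins at the far end of the 250-base window. That start site lies inside the annotated span of the gene (chr11:117966079-117970336). For Socs1 (minus strand, chr16:10785537-10785786) no base is in capitals, since these letters are not in its window.
Socs3: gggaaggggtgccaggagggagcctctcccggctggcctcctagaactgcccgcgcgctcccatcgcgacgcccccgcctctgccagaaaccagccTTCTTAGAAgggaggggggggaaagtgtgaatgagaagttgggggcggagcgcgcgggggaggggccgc
Socs1: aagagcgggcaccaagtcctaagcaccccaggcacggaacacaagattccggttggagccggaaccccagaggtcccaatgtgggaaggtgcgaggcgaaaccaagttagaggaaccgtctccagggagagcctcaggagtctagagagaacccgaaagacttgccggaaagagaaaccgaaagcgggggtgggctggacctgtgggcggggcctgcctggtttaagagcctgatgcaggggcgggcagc

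Stat5a and Stat5b, the paired transcription factors of interleukin 2 and interleukin 7 signalling, lie next to each other on chromosome 11, from 100859351 to 100885169 on the plus strand and from 100780731 to 100859004 on the minus strand, 346 bases apart. Stat3 follows from 100886806 to 100939594. Stat5b was the more abundant of the pair in every library. Stat5a had 11.3, 11.2 and 10.2 RPKM across the libraries of VAT KO, against 19.6 and 17.7 in spleen KO. It had 8.69, 7.84 and 8.39 RPKM across the libraries of VAT WT, against 10.2 and 19.7 in spleen WT. All VAT libraries were below all spleen libraries within each genotype, although spleen WT replicate 2 reached the level of VAT KO. The log2 change was -0.72 ± 0.23 in KO (adjusted p = 0.0507, not called) and -0.71 ± 0.23 in WT (adjusted p = 0.036). The WT call was lost without spleen WT replicate 3, which leaves 1 spleen WT library (-0.27, adjusted p = 0.27), and without VAT KO replicate 1 (0.0515), VAT KO replicate 2 (0.0518), VAT WT replicate 1 (0.0674), VAT WT replicate 2 (0.0833), VAT WT replicate 3 (0.0788) or spleen KO replicate 2 (0.0501). In KO the change passed without spleen WT replicate 2 (0.00407) or replicate 3 (0.00444), with the 2 groups alone (0.0081), array weights (0.00716), a pseudocount of 5 (0.0465) and a minimum mean of 5 RPKM (0.0452). The WT call also ended with median ratios (-0.59, adjusted p = 0.0765), quantile normalization (0.058), the 2 groups alone (0.109) and array weights (0.0933). Between the pair, 15.8% of the 50-base stretches of the Stat5a transcript and 11.8% of those of Stat5b occur in the other gene, so reads there may be split between them.

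Stat5b stood at -0.28 ± 0.27 in KO (adjusted p = 0.551) and -0.37 ± 0.27 in WT (adjusted p = 0.325). Its VAT values were 49.3, 70.3 and 58.8 RPKM in KO, against 81.9 and 62.5 in spleen KO. In WT they were 38.3, 38.1 and 43.2 RPKM, against 34.8 and 77.0 in spleen WT. The WT groups overlapped because of spleen WT replicate 2, and without it the change was -0.94 (adjusted p = 0.0073), while without spleen WT replicate 3 it was 0.19 (adjusted p = 0.492).

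Neither kinase, nor Stat3, Stat4 or Socs1, passed the test between tissues. Jak1, the kinase shared by most cytokine receptors, stood at 126 to 134 RPKM in VAT KO against 144 to 152 in spleen KO, and at 117 to 128 in VAT WT against 90.3 and 142 in spleen WT. Its log2 change was -0.18 (95% interval -0.54 to 0.18) in KO and 0.13 (-0.23 to 0.49) in WT. Jak3, which pairs with the common gamma chain Il2rg, stood at 44.1 to 53.5 RPKM in VAT KO against 48.6 to 51.3 in spleen KO, and at 41.4 to 49.9 in VAT WT against 48.6 and 65.6 in spleen WT. Its log2 change was -0.07 (-0.42 to 0.28) in KO and -0.30 (-0.65 to 0.05) in WT. Stat3, the factor of interleukin 6, 10 and 21, had 31.0 to 35.2 RPKM in VAT KO against 36.6 and 40.2 in spleen KO, and 29.1 to 31.7 in VAT WT against 23.4 and 36.8 in spleen WT. Its change was -0.20 (-0.59 to 0.19) in KO and 0.06 (-0.33 to 0.45) in WT. Stat4, the factor of interleukin 12, had 38.0 to 45.9 RPKM in VAT KO against 37.1 and 37.2 in spleen KO, and 35.1 to 39.6 in VAT WT against 38.2 and 50.4 in spleen WT. Its change was 0.16 (-0.17 to 0.50) in KO and -0.23 (-0.57 to 0.11) in WT. Socs1, the brake on interferon gamma and interleukin 2 signalling, had 22.9 to 33.2 RPKM in VAT KO against 28.3 and 31.4 in spleen KO, and 32.3 to 40.5 in VAT WT against 32.0 and 40.7 in spleen WT. Its change was -0.19 (-0.60 to 0.23) in KO and -0.02 (-0.44 to 0.39) in WT. These intervals leave room for changes of up to about 0.65 on the log2 scale. In the spread of single libraries, the groups of Stat4 did not overlap in KO (higher in VAT), nor did those of Jak1 and Stat3 (lower in VAT). Without spleen WT replicate 2, Jak3 passed in WT (-0.51, adjusted p = 0.0468). Without spleen WT replicate 3, Jak1 (0.45, adjusted p = 0.011) and Stat4 (-0.42, adjusted p = 0.0456) passed. Jak3 overlaps Insl3 and shares 8.94% of its 50-base stretches with it, and Stat4 shares 28.6% with the annotated gene Gm28177.

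**Figure D2:**
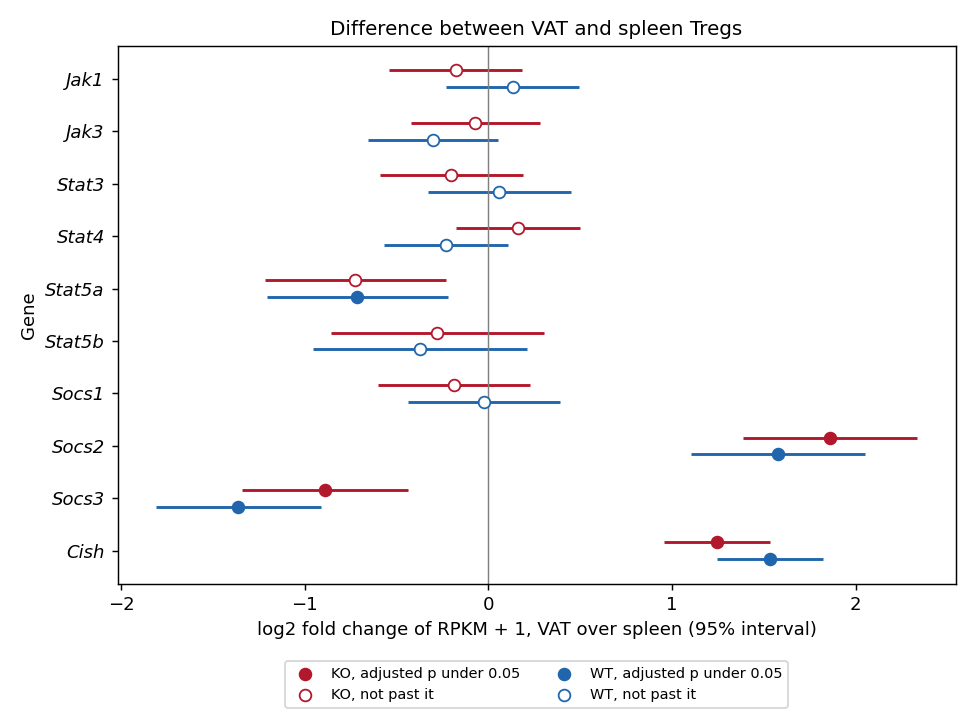
log2 fold change of RPKM + 1, VAT over spleen (horizontal axis), for each gene (vertical axis) in KO, upper marks, and WT, lower marks; bars are 95% intervals and filled points have an adjusted p under 0.05. Cish and Socs2 lie right of 0 and Socs3 left of it in both genotypes, and the intervals of Jak1, Jak3, Stat3, Stat4, Stat5b and Socs1 include 0.

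Genes induced when tissue is digested are given here because SOCS genes are themselves quickly induced. The 18 immediate early and dissociation genes, such as Fos, Jun and Dusp1, summed to 7191 to 7449 RPKM in the VAT KO libraries and 8007 to 8990 in VAT WT, against 914 to 1208 in spleen KO and 941 to 1011 in spleen WT. Of them 16 rose and 0 fell in VAT in KO, where 7.65% of all tested genes rose and 6.94% fell. In WT 16 rose and 1 fell, where 10.7% of all tested genes rose and 15.4% fell. The fall was Egr2 (-1.72, adjusted p = 0.0248), a call lost without VAT WT replicate 1 (0.0685), VAT WT replicate 2 (0.0735) or spleen WT replicate 3 (0.111), and with array weights (0.164). Their median log2 change was 3.96 in KO and 4.13 in WT. Their part in the changes of Cish, Socs2 and Socs3 was not tested. Of 12 myeloid markers 4 were in the table, summing to 20.3 to 45.6 RPKM in the VAT KO libraries and 12.3 to 15.2 in VAT WT, against 183 to 186 in spleen KO and 179 to 240.5 in spleen WT, nearly all of it Ctss, with Csf1r and Adgre1 at group means of at most 1.31 RPKM. Of 11 B cell markers 8 were in the table, summing to 60.1 to 119 RPKM in the VAT KO libraries and 63.0 to 223 in VAT WT, against 105 to 137.5 in spleen KO and 104 to 137 in spleen WT. Mmp9 alone was in the table of 8 neutrophil markers, at 112 to 135 RPKM in the VAT KO libraries and 129 to 217 in VAT WT, against 1.95 to 3.84 in spleen KO and 0.387 to 4.92 in spleen WT. Pecam1 alone was in it of 8 stromal and endothelial markers, at 8.80 to 11.8 RPKM in the VAT KO libraries and 4.39 to 7.37 in VAT WT, against 19.3 to 34.9 in spleen KO and 15.9 to 31.4 in spleen WT. Of 8 markers of NK, gamma-delta and CD8 T cells 2 were in it, summing to 4.93 to 20.0 RPKM over all libraries, of 8 adipocyte markers Lipe alone, at 1.63 to 3.40, and of 5 red cell markers 0. The part of these cells in the differences was not tested.

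The other genes of the pathway were read in the same comparisons. Among further STAT and SOCS genes, Stat2, a factor of interferon signalling, fell in VAT in KO (-0.64, adjusted p = 0.0417), a call that was lost with any VAT KO or spleen KO library left out (0.0526 to 0.337), without VAT WT replicate 3 (0.0605) and with quantile normalization (0.0604) or median-ratio scaling (0.0735). Socs4 rose in WT (1.45, adjusted p = 0.00095) at a low level, 4.61 ± 1.09 RPKM in VAT WT against 1.05 ± 0.477 in spleen WT (SD, n = 3 and 2).

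Receptor chains went both ways. Of 22 chains looked up 20 were in the table and 18 were tested. In VAT 5 rose and 4 fell in KO, where 14.6% of all tested genes were called. In WT 6 rose and 6 fell, where 26.1% of all tested genes were called. The interleukin 10 receptor chain Il10ra rose most in KO (2.42 ± 0.14, adjusted p = 1.3e-07), to 114.6 ± 3.75 RPKM in VAT KO against 20.6 ± 2.63 in spleen KO, and stood at 139 ± 13.6 in VAT WT against 20.8 ± 0.79 in spleen WT (2.68 ± 0.14, adjusted p = 3.9e-08; SD, n = 3 in VAT and 2 in spleen). Il9r (1.90 in KO and 2.99 in WT), Ifngr1 (1.43 and 1.24), Il7r (1.29 and 1.32) and Il12rb1 (0.79 and 1.27) rose in both genotypes, and Il2ra, the high-affinity chain for interleukin 2, was called in WT (1.05, adjusted p = 0.0024). Il6st and Il6ra, which form the interleukin 6 receptor, fell in both. Il6st changed by -1.51 in KO and -1.79 in WT, and Il6ra by -1.46 and -1.62. Il21r (-0.88 and -1.06) and Il27ra (-0.67 and -0.79) also fell in both, and Ifngr2 (-1.11) and Ifnar2 (-0.82) were called in WT. Socs3 fell in VAT in both genotypes, as did both chains of the interleukin 6 receptor, while Il10ra rose. Cish and Socs2 rose in both, as did Il7r, while Il21r and Il27ra fell. Any link between the receptor chains and the inhibitors was not tested. The KO calls were lost for Il12rb1 when VAT KO replicate 1 (adjusted p = 0.0919) was left out, or spleen KO replicate 2 (0.0545) or spleen KO replicate 3 (0.204), for Il21r without spleen KO replicate 3 (0.105) and for Il27ra without spleen KO replicate 2 (0.0517).

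Among genes known as STAT5 targets in T cells, 5 of 16 rose and 4 fell in VAT in KO, and 6 rose and 4 fell in WT. The share called over all tested genes was 14.6% in KO and 26.1% in WT. Id2 (2.49 in KO and 2.54 in WT), the kinase Pim1 (2.47 and 2.37), the survival factor Bcl2l1 (1.77 and 2.01) and the TNF receptor Tnfrsf18 (0.83 and 0.78) rose in both. Tnfrsf4 (0.85) was called in KO, and Il2ra and Ccnd2 (0.89) in WT. Lymphotoxin Lta (-2.94 and -4.01), Bcl2 (-1.40 and -2.06), Pim2 (-0.89 and -1.08) and Bcl6 (-0.998 and -1.39) fell in both. Bcl2 and Bcl2l1, related survival factors, moved in opposite directions. Whether STAT5 induces or represses each target was not taken into account, so the counts of rises and falls do not measure its activity. The Ccnd2 call was lost without spleen WT replicate 2 (adjusted p = 0.0522). The Bcl6 call in KO was lost with any library other than VAT KO replicate 3, spleen WT replicate 2 and spleen WT replicate 3 left out (0.0614 to 0.226), and with median ratios (0.063), the 2 groups alone (0.0642) or a pseudocount of 0.1 (0.0605). The WT call of Bcl6 was lost with array weights (0.0587).

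Of 10 STAT3 targets 6 rose and 0 fell in VAT in KO, and 5 rose and 0 fell in WT. Over all tested genes 7.65% rose and 6.94% fell in KO, and 10.7% rose and 15.4% fell in WT. The direction in which STAT3 acts on each target was not taken into account, so these counts do not measure its activity. The targets that rose were the cytokine Il10 (5.55 in KO and 4.69 in WT), the AP-1 factors Fosl2 (4.20 and 4.70) and Junb (3.81 and 3.56), Rora (2.33 and 2.69), Prdm1 (1.86 and 2.60) and, in KO, Maf (0.72). Junb is also an immediate early gene. The KO call of Maf was lost when VAT KO replicate 1 (adjusted p = 0.123) was left out, or VAT KO replicate 3 (0.087) or spleen KO replicate 2 (0.29), and that of Prdm1 without spleen KO replicate 3 (0.108). Socs3, induced by STAT3 in many cells, was lower in VAT in both genotypes.

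Proteins that restrain JAK-STAT signalling, 13 in all, held 3 falls and 0 rises in VAT in KO and 4 falls and 0 rises in WT. Of all tested genes 14.6% were called in KO (6.94% lower) and 26.1% in WT (15.4% lower). Usp18, which blocks the type I interferon receptor, fell by 2.69 in KO and 2.83 in WT, and the phosphatase Ptpn6 (SHP-1) fell by 1.39 and 1.72. Ptpn6 had 27.7, 35.1 and 35.3 RPKM across the libraries of VAT KO, against 79.5 and 94.7 in spleen KO. It had 20.7, 18.4 and 21.9 RPKM across the libraries of VAT WT, against 54.6 and 87.1 in spleen WT. Every VAT library was below every spleen library. The phosphatase Ptpn1 fell in WT (-0.67, adjusted p = 0.0097), a call lost with the 2 groups alone (0.0518) or array weights (0.0519). Sh2b3 was called in both genotypes (-0.77, adjusted p = 0.0493 in KO and -0.81, adjusted p = 0.0275 in WT). Its KO call was lost with any library other than a spleen WT one left out (0.0578 to 0.234), and its WT call without VAT WT replicate 1 (0.0679), VAT WT replicate 2 (0.078) or spleen WT replicate 3 (0.173). With median-ratio scaling, neither call of Sh2b3 was made (0.0762 in KO and 0.0558 in WT). Its WT call was also lost with the 2 groups alone (0.0807) and array weights (0.119), and its KO call with a pseudocount of 0.1 (0.0566), no filter (0.0556) and quantile normalization (0.0523).

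**Figure D3:**
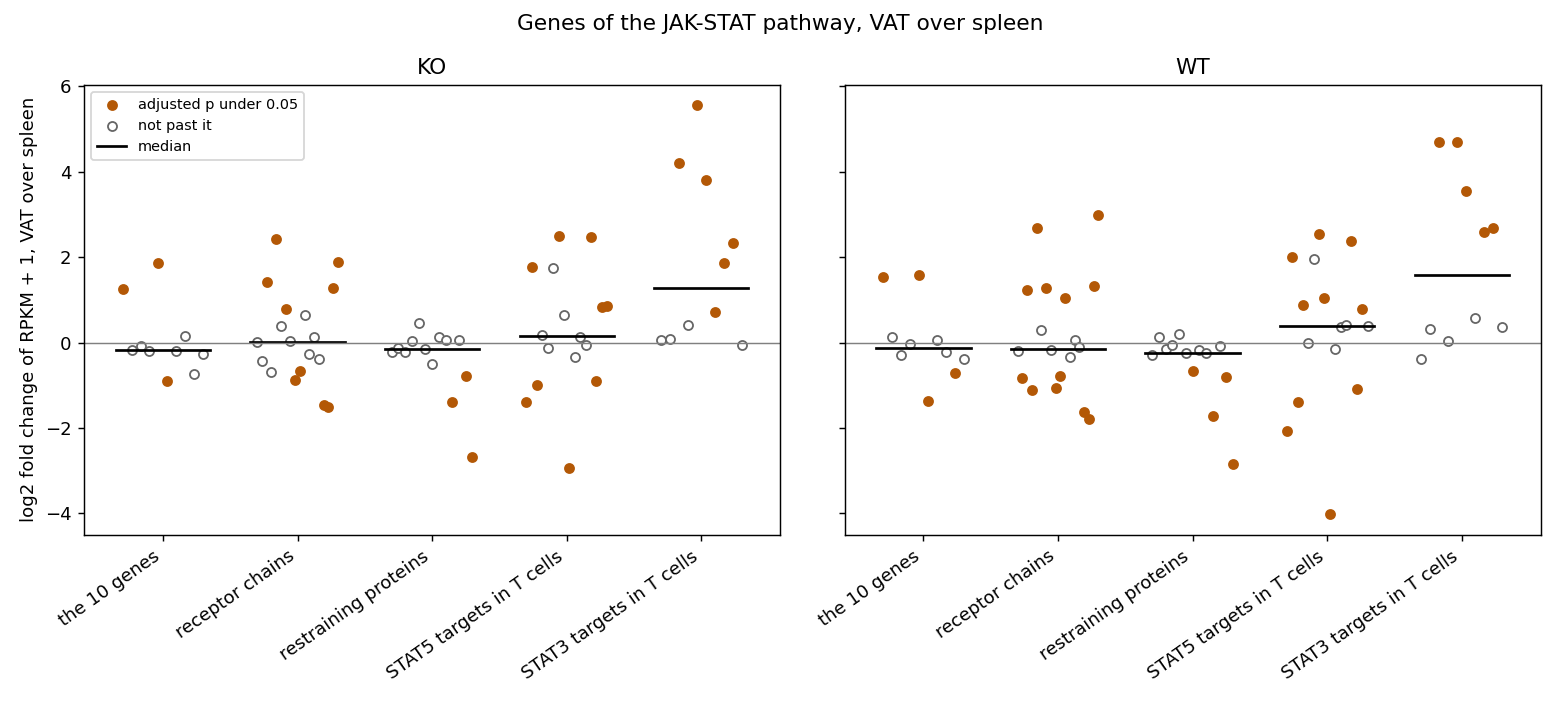
log2 fold change of RPKM + 1, VAT over spleen (vertical axis), of each tested gene in 5 groups of the JAK-STAT pathway (horizontal axis; points are spread sideways by name only), with KO on the left and WT on the right; filled points have an adjusted p under 0.05 and bars are group medians. STAT3 targets have a median of 1.29 in KO and 1.59 in WT, and receptor chains and STAT5 targets spread to both sides of 0.

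By the closeness of their 4 group means on the log2 scale, each centred on its own mean, a few genes followed the 3 most variable ones. Nearest to Socs2 were Zc3h12a, an RNase that degrades cytokine mRNAs (root mean square difference 0.05), Laptm4b (0.06) and Sgms1, a sphingomyelin synthase (0.07). Zc3h12a averaged 26.6 RPKM in VAT KO, 26.1 in VAT WT, 6.09 in spleen KO and 8.07 in spleen WT. Nearest to Cish were Phka1 (0.03), Nedd4, a ubiquitin ligase (0.04), and Tnfrsf12a, the receptor Fn14 (0.04), all under 5 RPKM in every group. Phka1 averaged 2.10 RPKM in VAT WT against 0.13 in spleen WT, and Nedd4 3.37 against 0.57. As ratios of RPKM, their changes were thus larger than that of Cish, and log2(RPKM + 1) shrinks them at such low values. Nearest to Socs3 were Cdca7 (0.04), Prkca, a protein kinase C (0.05), and Cyp4f17 (0.05). The likeness is over 4 group means only, and on the scale of log2(RPKM + 1).

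Deletion of Srebf2 gave no call among the 10 genes in fat Tregs, but Cish stood lower and the STAT5 pair higher in VAT KO without overlap. Limma called 0 of the 10, where 0.422% of all tested genes were called (0.307% higher and 0.115% lower). At an unadjusted p under 0.05 there were 3 of the 10, Cish, Socs1 and Stat5b, against 7.35% of all tested genes. The groups did not overlap for 3 of the 10, against 15.1% of all tested genes, with 2 higher (8.97%) and 1 lower (6.16%). The median log2 change was 0.10 for the 10 genes and 0.02 for all tested genes.

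Cish averaged 62.8 ± 3.80 RPKM in the VAT KO libraries and 79.9 ± 5.83 in VAT WT (SD, n = 3 each), a log2 change of -0.34 ± 0.12 (unadjusted p = 0.0134, adjusted p = 0.443). The highest of the 3 KO libraries, 67.1, was below the lowest WT library, 74.3. In spleen, where Cish was low in both genotypes, it averaged 25.9 ± 0.17 RPKM in KO and 26.9 ± 0.51 in WT (SD, n = 2 each; -0.05 ± 0.14, adjusted p = 0.914). The interaction, the VAT change minus the spleen change, was -0.29 ± 0.19 (adjusted p = 0.787), which did not pass the test.

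Stat5b averaged 59.5 ± 10.5 RPKM in the VAT KO libraries and 39.9 ± 2.89 in VAT WT (SD, n = 3 each), a log2 change of 0.55 ± 0.24 (unadjusted p = 0.0389, adjusted p = 0.636). Stat5a averaged 10.9 ± 0.62 RPKM in the VAT KO libraries and 8.31 ± 0.43 in VAT WT, a log2 change of 0.35 ± 0.20 (adjusted p = 0.857). For each of the pair, the lowest KO library was above the highest WT library. With any library left out, the VAT change lay between 0.43 and 0.68 for Stat5b and between 0.31 and 0.39 for Stat5a, without a call. In spleen the pair stood at 0.46 ± 0.29 for Stat5b and 0.36 ± 0.25 for Stat5a (adjusted p = 0.667 and 0.684), but these values hung on the WT libraries. Without spleen WT replicate 2 they were -0.10 and -0.08, and without spleen WT replicate 3 they were 1.02 and 0.80 (adjusted p = 0.0157 and 0.0249), each with 1 spleen WT library left.

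Socs1 averaged 26.4 ± 5.87 RPKM in the VAT KO libraries and 35.6 ± 4.34 in VAT WT (SD, n = 3 each), a log2 change of -0.43 ± 0.17 (unadjusted p = 0.0261, adjusted p = 0.545). The groups overlapped in 1 library: VAT KO replicate 1 had 33.2 RPKM, above VAT WT replicate 3 at 32.3, while the other KO libraries had 22.9 and 23.2. In spleen Socs1 had 31.4 and 28.3 RPKM in KO, against 40.7 and 32.0 in WT, again lower in KO without passing (-0.27 ± 0.21, adjusted p = 0.703). Socs3 stood at 0.36 ± 0.19 in VAT (adjusted p = 0.775) and -0.11 ± 0.23 in spleen (adjusted p = 0.88), and Socs2 at 0.08 ± 0.20 and -0.20 ± 0.24 (adjusted p = 0.9995 and 0.789). Jak1, Jak3, Stat3 and Stat4 lay between 0.05 and 0.15 in VAT. Their 95% intervals there were -0.25 to 0.40 for Jak1, -0.26 to 0.37 for Jak3, -0.24 to 0.46 for Stat3 and -0.15 to 0.46 for Stat4.

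In spleen Tregs limma called 0 of the 10 genes, where 0% of all tested genes were called, and none of the 10 had an unadjusted p under 0.05, against 8.37% of all tested genes. The groups of 2 against 2 did not overlap for 4 of the 10 (Jak1 higher; Stat4, Socs1 and Cish lower in KO), against 32.6% of all tested genes (15.0% higher and 17.5% lower). The largest values were 0.46 for Stat5b, 0.39 ± 0.18 for Jak1 (adjusted p = 0.596) and 0.37 ± 0.20 for Stat3 (adjusted p = 0.625). Spleen WT replicate 2 had lower values than replicate 3 for Jak1 (90.3 and 142 RPKM), Stat3 (23.4 and 36.8), Stat5a (10.2 and 19.7) and Stat5b (34.8 and 77.0), while the same pair differed little for Cish (26.5 and 27.2). Without spleen WT replicate 3, 4 of the 10 genes passed, Jak1 (0.71, adjusted p = 0.0094), Stat3 (0.69, 0.0206), Stat5a and Stat5b, in a fit that called 1395 genes and rested on 1 spleen WT library assumed to vary like the other groups. Without spleen WT replicate 2, 0 of the 10 passed. The interaction called 0 of the 10 genes and 0% of all tested genes, with 0 of the 10 and 7.08% of all tested genes at an unadjusted p under 0.05. Its smallest p among the 10 was for Stat4 (0.39 ± 0.22, unadjusted p = 0.099, adjusted p = 0.758).

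**Figure D4:**
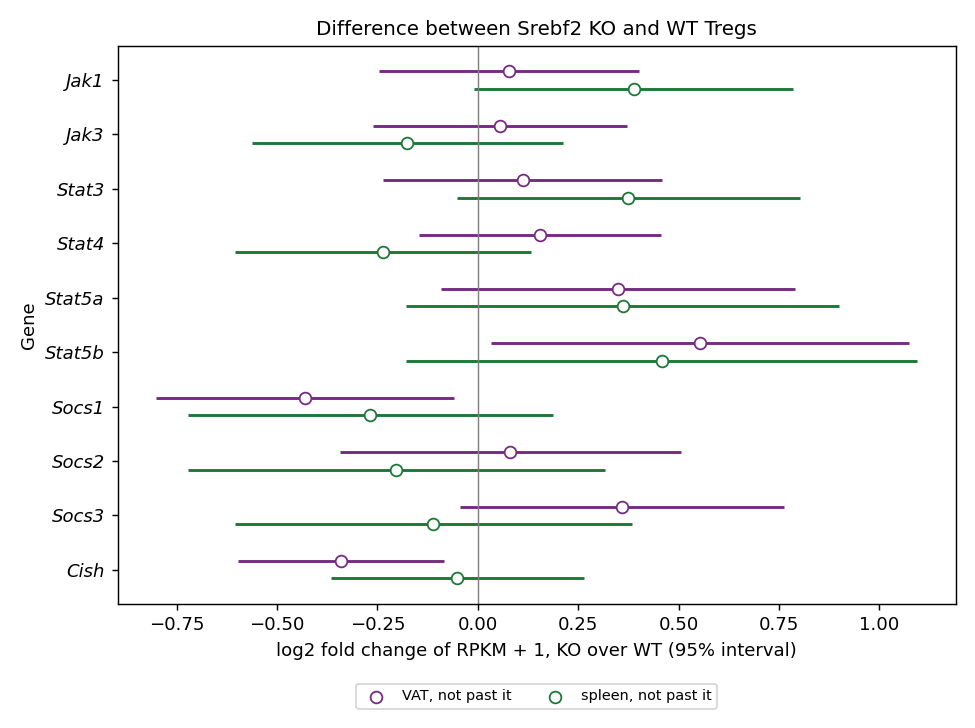
log2 fold change of RPKM + 1, KO over WT (horizontal axis), for each gene (vertical axis) in VAT, upper marks, and spleen, lower marks; bars are 95% intervals and open points did not pass the adjusted p of 0.05. No point is filled; in VAT the intervals of Stat5b, Socs1 and Cish lie off 0 before adjustment.

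No receptor chain, restraining protein, STAT5 target or STAT3 target of the lists was called between KO and WT in either tissue, nor were Stat2, Stat6, Socs4 and Socs6. Bcl2 had 17.3, 18.9 and 18.7 RPKM across the libraries of VAT KO, against 9.12, 12.6 and 9.71 in VAT WT (0.76 ± 0.15, adjusted p = 0.052). It passed without VAT WT replicate 2 (0.0405), spleen WT replicate 2 (0.0313) or spleen WT replicate 3 (0.031), with a filter at a mean of 5 RPKM (0.0415) and with array weights (0.0135). Lta stood at 1.00 ± 0.23 (adjusted p = 0.127), without overlap between the groups. Ptpn6 stood at 0.65 ± 0.18 (adjusted p = 0.245), Cblb at 0.45 (0.75), Il21r at 0.57 (0.355), Il6st at 0.71 (0.363), Bcl3 at -0.37 (0.86), Icos at 0.21 (0.899) and Socs6 at -0.32 (0.925). Of the 13 restraining proteins 12 lay above 0, with a median of 0.14, of 16 STAT5 targets 6, with a median of -0.03, and of 10 STAT3 targets 2, with a median of -0.22. Beside these, 14 of the 18 immediate early genes lay below 0 in VAT KO, with 0 called and a median of -0.22. Ctss, from the myeloid list, was called higher (1.31, adjusted p = 0.0449). That call was lost with any library left out other than VAT KO replicate 1 and the 2 spleen WT libraries (0.0941 to 0.263 for the VAT libraries). It was also lost with a pseudocount of 0.1 (0.0523) or 5 (0.0638), no filter (0.0526) and the 2 groups alone (0.0523). The part of the immediate early genes or of Ctss in these values was not tested. In spleen the genes named by the smallest p of their lists were Socs4 (0.89, adjusted p = 0.548) and Stat6 (0.30, 0.678), Il9r (0.59, 0.594) and Il4ra (0.49, 0.594), Cblb (0.70, 0.594) and Ptpn6 (0.33, 0.677), Ccnd2 (0.57, 0.594) and Tnfrsf4 (-0.38, 0.594), and Il10 (-1.14, 0.582) and Junb (-0.42, 0.594).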

How the data were processed

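RNA of sorted Tregs was measured in 4 groups of tissue and genotype. Per the labels' protocols, cDNA was made with the SMART-seq v4 kit and libraries with Nextera XT. That chemistry keeps no strand. STAR and the build mm10 are named in the submitters' processing notes. For the read counter, the gene models and any filter on the table, the choice is not given in the sources used here. Values are RPKM as the authors deposited them, per the file headers. Of 11 labelled samples 10 have a matching column, and 1 column of per-sample values, named as spleen WT replicate 1, matches no label and was not used. The design had assumed that spleen KO replicate 1 would be present. RPKM values are not counts, so depth and counting error are unknown.

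Values were analysed as log2(RPKM + 1), over the 10429 genes with at least 1 RPKM in at least 2 samples, in 1 limma model (R 4.3.3, limma 3.58.1, trend on) of 4 group means, with 6 residual and 6.44 prior degrees of freedom. Tests were two-sided with Benjamini-Hochberg adjustment within a comparison at 0.05. The fit was tested on simulated data. The named genes are the 10, the called genes of each list or else its 2 of smallest p, and the nearest 3 genes to the 3 most variable. Some results of the lists are not reported here. The members and lists were chosen with earlier results of these data known. Replicate numbers were not used to pair the libraries. The alternatives tried were other pseudocounts (0.1 and 5), quantile normalization, no filter, a minimum mean of 5 RPKM, median ratios, the 2 groups alone, array weights, a replicate block and each library left out. Start sites and spans are from RefSeq GRCm38.p6, and exons and transcripts from GENCODE.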

Additional observations from a re-analysis of the deposited data

How the results depend on the processing

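All values here come from 1 choice changed at a time. Of 940 values of the 10 genes under the alternatives, 882 kept direction and side of the threshold, 14 lost a call, 15 gained one and 29 changed sign. Leaving out a library of a group outside a comparison cannot alter the log2 change in it. Some of the 940 values therefore kept their direction by design. Cish and Socs2 kept their tissue calls in both genotypes under every alternative run. Changes of sign outside left-out libraries were Socs1 between tissues in WT, 0.10 with quantile normalization and 0.11 with median ratios, and Jak3 in KO, 0.0185 with median ratios; the cause was not tested.

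Counts of genes moved as follows; the cause was not tested. A pseudocount of 0.1 called 2 genes for KO against WT in spleen and 2 for the interaction, against 0 and 0. For KO against WT in VAT, a pseudocount of 5 called 20 and array weights 83, against 44. Between tissues in WT the 2 groups alone called 1749 and array weights 1318, against 2723, and in KO array weights called 2329, against 1522. Median-ratio scaling moved the median of all genes between tissues in WT to -0.01, against -0.12, and the higher and lower calls to 1364 and 1085, against 1116 and 1607, and in KO to 904 and 547, against 798 and 724.

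With each library left out in turn, the genes called ranged from 2 to 59 for KO against WT in VAT, 0 to 1395 in spleen, 747 to 2209 between tissues in KO, 1718 to 3892 in WT and 0 to 514 for the interaction. Of the 10 genes, 0 to 4 were called in spleen, 2 to 4 between tissues in KO, 3 to 6 in WT and 0 to 1 for the interaction. For KO against WT in VAT, Jak3 ranged from -0.0298 to 0.12 and Socs2 from -0.0406 to 0.27. In spleen, Jak3 ranged from -0.39 to 0.0381, Stat5a from -0.0826 to 0.80, Stat5b from -0.10 to 1.02, Socs2 from -0.52 to 0.12 and Socs3 from -0.36 to 0.14. Between tissues in WT, Jak1 ranged from -0.19 to 0.45, Stat3 from -0.26 to 0.38, Stat5b from -0.94 to 0.19 and Socs1 from -0.19 to 0.14. For the interaction, Jak1 ranged from -0.63 to 0.0119, Stat3 from -0.58 to 0.0544, Stat5a from -0.45 to 0.43, Stat5b from -0.47 to 0.66, Socs1 from -0.33 to 0.00544 and Socs2 from -0.0351 to 0.60. Jak1 passed there without spleen WT replicate 3 (-0.63, adjusted p = 0.0414), with 1 spleen WT library left.

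The labels do not say whether a replicate number marks a shared animal, so pairing could not be settled. The deviations of same-numbered libraries correlated at -0.147 to 0.184. With a replicate block, 39 genes were called for KO against WT in VAT, 0 in spleen, 1096 between tissues in KO, 2066 in WT and 0 for the interaction. Under the block Stat5a was not called in WT (-0.74, adjusted p = 0.064). Also lost between tissues in KO were the calls of Stat2 (adjusted p = 0.101), Il12rb1 (0.0782), Sh2b3 (0.095), Bcl6 (0.122) and Maf (0.0929). In WT the call of Sh2b3 was lost too (0.0533). Read depth was unknown, so counting error could not be separated from the spread of libraries.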
